A study of Mus musculus with 13 samples.

Results

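The response of CD103 high CD205+CD8+ splenic dendritic cells to muramyl dipeptide (MDP) was taken from 3 arrays of cells of MDP mice and 3 arrays of cells of PBS mice, 6 of the 13 arrays of the series. They were chosen by treatment and sort gate alone, and every gene was compared. The mice were C57Bl/6 littermates labelled male, which received a subcutaneous Flt3L-secreting B16 melanoma at 6 weeks of age. After 5 days, MDP mice were given 50 ug of MDP in 100 ul of PBS into the peritoneum and PBS mice the same volume without MDP. Spleens were taken 24 h later and digested with collagenase, and CD205+CD8+ cells were sorted and then sorted again into CD103 high and CD103 low. The groups are MDP CD103 high (n = 3, replicates 2, 3 and 4), PBS CD103 high (n = 3, replicates 4, 5 and 6), MDP CD103 low (n = 3) and PBS CD103 low (n = 4). All mice, the PBS mice too, carried the tumour, so the cells of every group had been exposed to Flt3L. Sorting on CD103 followed the treatment, so the CD103 high gate need not hold the same kind of cell in MDP and PBS mice. Each group held arrays high and arrays low in the female transcript Xist, so its arrays do not all stem from 1 mouse. The labels do not say whether every array is a mouse of its own, and p-values cover the spread between the samples at hand.

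Muramyl dipeptide is a fragment of bacterial peptidoglycan that is sensed inside cells by NOD2, a receptor that signals to NF-kB. CD8+ dendritic cells of the spleen, called type 1 conventional dendritic cells (cDC1), take up dying cells and show pieces of them to CD8 T cells. Dendritic cells of the spleen arise from precursors that divide, and part of the cDC1 still divide in the tissue. On maturation they largely stop dividing, induce NF-kB genes and display CCR7, the receptor that guides them to T cell zones. CD103 is the alpha chain of an integrin that binds E-cadherin and is encoded by Itgae.

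The sorted cells had the defining transcripts of their label. Cd8a stood at 10.30, 10.24 and 10.31 in MDP CD103 high cells and at 10.35, 10.51 and 10.37 in PBS CD103 high cells, as log2 values. Ly75, which encodes CD205, stood at 9.20, 9.14 and 8.99 with MDP and at 9.19, 9.42 and 9.38 with PBS. The median of all genes was 5.27, while the 95th percentile of 1105 olfactory receptor genes, taken as the background of the arrays, was 5.12. The 30 measured genes of cDC1 identity had a mean of 10.53 to 10.59 on the MDP CD103 high arrays and 10.54 to 10.61 on the PBS CD103 high arrays, and none of them lay below that background. Among them Batf3 (0.03 ± 0.09, SE), Irf8 (-0.03 ± 0.06), Xcr1 (-0.02 ± 0.08) and Wdfy4 (0.03 ± 0.06) were close to 0 in the log2 difference, MDP minus PBS, and did not pass. These were picked after their values were seen. The differences of all 30 ran from -0.53 to 1.20, with 12 above 0 and 18 below. Itgae, the highest, was the 1 member that passed. MDP and PBS arrays did not overlap in 9 of the 30 genes, against 19.0% of all genes. Nod2 itself stood at 6.64, 6.66 and 6.73 with MDP and 6.54, 6.69 and 6.82 with PBS, and these arrays overlapped.

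Arrays did not all match their label of sex. Xist, transcribed from the X chromosome that female cells shut down, was at 10.98 or more in 7 of the 13 arrays and at 6.69 or less in the other 6, and arrays high in Xist had a mean of at most 4.39 over Eif2s3y, Kdm5d and Uty, all on the Y chromosome. Both kinds were split alike, with 2 of 3 MDP CD103 high arrays and 2 of 3 PBS CD103 high arrays high in Xist. With this difference as a covariate 327 genes were higher and 94 lower with MDP, against 315 and 88 without it. MDP CD103 low replicate 1 stood apart in genes of mature dendritic cells, as given with those genes.

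MDP changed 403 of 22180 genes in CD103 high cells, 1.82% of those tested (limma, adjusted p under 0.05). Of these, 315 rose (1.42%) and 88 fell (0.397%), with a median log2 difference of 0.65 among those that rose and -0.52 among those that fell. The median over all genes was -0.01. In limma 2956 of the 22180 genes had an unadjusted p under 0.05. Counts in the gene lists are to be read against these shares of all genes. At least 2-fold changes numbered 32, with 23 rises and 9 falls. For all 403 the MDP and PBS arrays did not overlap, which was so for 19.0% of all genes. Of the 403, 382 had a mean over all arrays above the olfactory receptor range. The counts depend on single arrays. Without MDP CD103 high replicates 2 or 3, 93 or 101 genes were higher and 16 or 23 lower, and without PBS CD103 high replicates 5 or 6, 75 or 69 were higher and 19 or 13 lower. Without MDP CD103 high replicate 4, 50 were lower. Without MDP CD103 low replicate 1, which enters only the shared estimate of the spread, 391 were higher and 203 lower.

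**Figure D1:**
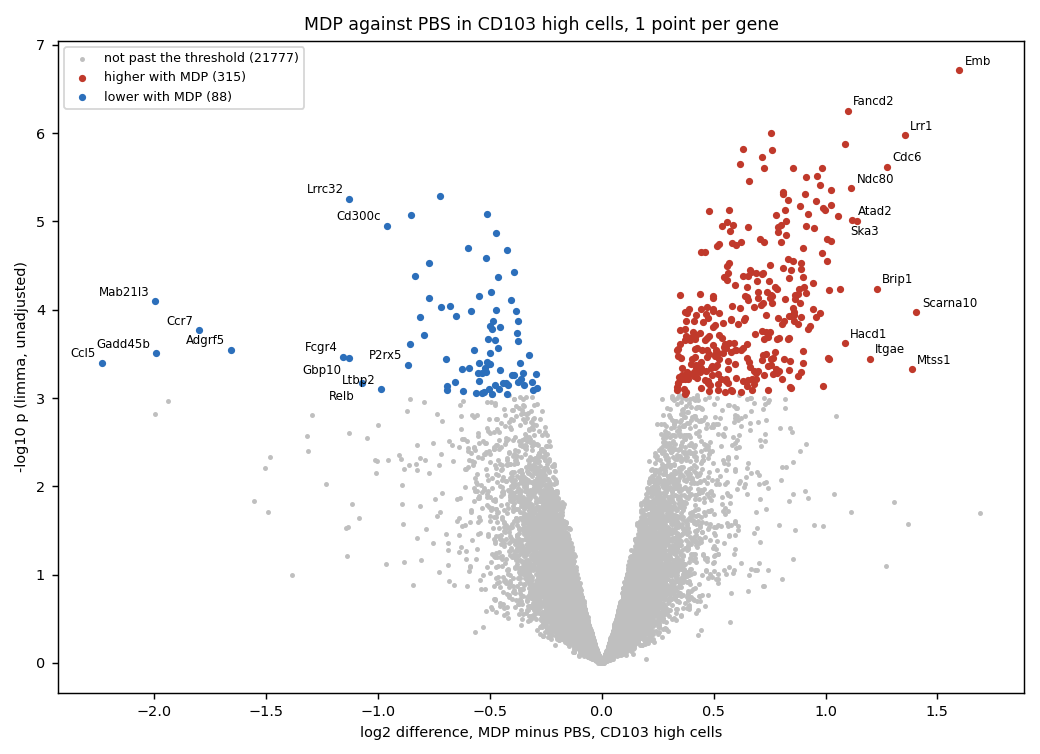
Each point is 1 of 22180 genes, with the log2 difference (MDP minus PBS, CD103 high cells) on the x axis and -log10 of the unadjusted limma p on the y axis. The 315 genes that rose (red) reach a log2 difference of 1.60 for Emb, and the 88 that fell (blue) reach -2.24 for Ccl5.

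The largest rise was that of Emb (probe set 17290083, Entrez gene 13723). Its product embigin is a membrane protein that accompanies lactate transporters to the cell surface. Emb stood at 6.81, 6.85 and 6.98 in MDP CD103 high cells and at 4.90, 5.36 and 5.58 in PBS CD103 high cells. Every MDP array lay well above every PBS array, 1 of which was inside the olfactory receptor range, and the MDP arrays were close together. The difference was 1.60 ± 0.16 (SE), or 3.03-fold (limma, adjusted p = 0.00428). In CD103 low cells Emb was at 7.63, 7.24 and 7.29 with MDP and at 6.77, 6.90, 6.56 and 6.92 with PBS, a difference of 0.60 ± 0.15 (adjusted p = 0.706). The MDP CD103 high arrays thus stood near the PBS CD103 low arrays in Emb, and the PBS CD103 high arrays below both. The difference between the responses, 1.00, had an adjusted p of 0.100.

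Itgae, whose product set the gate, also rose within it. It stood at 11.44, 11.10 and 11.51 in MDP CD103 high cells and at 10.16, 10.22 and 10.07 in PBS CD103 high cells, without overlap (1.20 ± 0.25, 2.29-fold, adjusted p = 0.0290). In CD103 low cells it was 10.68, 10.07 and 9.64 with MDP against 8.35, 8.17, 7.73 and 7.46 with PBS, a rise of 2.21 ± 0.23 (adjusted p = 0.00838). This was the 1 gene of 22180 (0.00451%) that passed in CD103 low cells. The responses of Itgae were not shown to differ between the gates (-1.01, adjusted p = 0.332). Its call in CD103 high cells was lost without any 1 of the 6 CD103 high arrays.

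Most of the other large rises were in genes of DNA replication and chromosome segregation. Among the 12 largest were Lrr1, a part of the ubiquitin ligase that unloads the replicative helicase, and Cdc6, which loads that helicase at origins. Brip1 is a helicase and Fancd2 a clamp protein of the Fanconi repair of DNA crosslinks, Ska3 and Ndc80 join the kinetochore to microtubules, and Atad2 is a chromatin ATPase. Lrr1 stood at 6.71, 6.94 and 6.60 with MDP and at 5.48, 5.40 and 5.31 with PBS (1.35 ± 0.16, 2.56-fold, adjusted p = 0.00428). Cdc6 stood at 8.47, 8.62 and 8.62 with MDP and at 7.49, 7.38 and 7.03 with PBS (1.27 ± 0.16, 2.42-fold, adjusted p = 0.00428). In both genes every MDP CD103 high array lay above all 10 arrays of the other groups, and the calls held without any 1 of the 13 arrays.

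The remaining large rises were Scarna10, a small Cajal body RNA that guides modification of spliceosomal RNA (1.41 ± 0.26), Mtss1, an actin-regulating membrane-bending protein (1.39 ± 0.30), and Hacd1, an enzyme of very long fatty acid synthesis (1.09 ± 0.22), with adjusted p of 0.0154, 0.0338 and 0.0235. Mtss1 varied most among them, at 7.17, 6.68 and 7.90 with MDP against 5.98, 5.77 and 5.86 with PBS. Hacd1 lay inside the olfactory receptor range on every CD103 high array. Scarna10 stood at 5.89, 5.90 and 5.63 with MDP and at 5.13, 4.10 and 3.98 with PBS, with 2 of the PBS arrays inside that range, so the size of both differences is uncertain. Each of these calls was lost when MDP CD103 high replicate 2 or PBS CD103 high replicates 5 or 6 were left out, among others.

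The largest fall was that of Ccl5, a chemokine that draws T cells and monocytes. Ccl5 stood at 6.41, 6.98 and 7.50 in MDP CD103 high cells and at 8.87, 9.70 and 9.03 in PBS CD103 high cells (-2.24 ± 0.47, 0.212 times the PBS level, adjusted p = 0.0311). Ccr7 stood at 7.41, 7.24 and 7.85 with MDP and at 9.04, 9.58 and 9.29 with PBS (-1.80 ± 0.34, 0.287 times the PBS level, adjusted p = 0.0194). Gadd45b, a stress gene that NF-kB induces, stood at 7.24, 7.68 and 8.11 with MDP and at 9.31, 9.93 and 9.77 with PBS (-1.99 ± 0.41, adjusted p = 0.0271). In each of these 3 genes all MDP CD103 high arrays lay below all arrays of the other groups. Each call was lost without any 1 of MDP CD103 high replicates 2 and 3 and PBS CD103 high replicates 5 and 6.

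Lrrc32 fell with less spread. It encodes GARP, which anchors latent TGF-beta to the cell surface. Lrrc32 stood at 5.60, 5.42 and 5.54 in MDP CD103 high cells and at 6.47, 6.99 and 6.49 in PBS CD103 high cells (-1.13 ± 0.15, 0.457 times the PBS level, adjusted p = 0.00495). No MDP array reached the PBS arrays, and the call held without any 1 array. Cd300c, an activating receptor of myeloid and plasmacytoid dendritic cells, was at 8.59, 8.49 and 8.42 with MDP against 9.22, 9.44 and 9.72 with PBS (-0.96 ± 0.14, adjusted p = 0.00520). Ltbp2, a latent TGF-beta binding protein family member of the extracellular matrix, fell by 0.98 ± 0.23 (adjusted p = 0.0459). The other 6 of the 12 largest falls were Mab21l3 (0.251 times the PBS level), the adhesion receptor Adgrf5 (a log2 difference of -1.66), the Fc receptor Fcgr4 (-1.16), the interferon-inducible GTPase Gbp10 (-1.13), the NF-kB subunit Relb (-1.07) and the ATP-gated channel P2rx5 (-0.87). Of these 12 falls, the calls of Lrrc32 and Cd300c held without any 1 array, and those of the other 10 were each lost without at least 4 of the 6 CD103 high arrays.

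**Figure D2:**
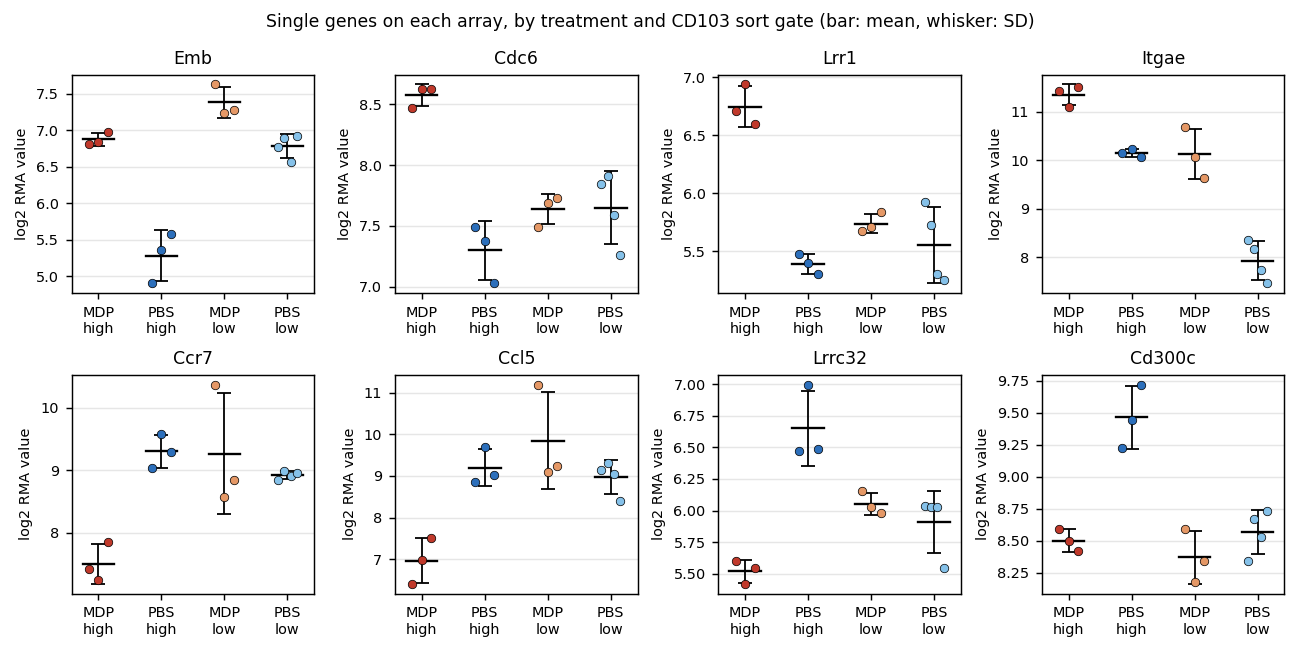
The log2 value of 8 genes (y axes) is shown on each of the 13 arrays by treatment and CD103 gate, with points for arrays, bars for means and whiskers for the SD. Emb, Cdc6, Lrr1 and Itgae are higher and Ccr7, Ccl5, Lrrc32 and Cd300c lower on every MDP CD103 high array than on every PBS CD103 high array, and MDP CD103 low replicate 1 is the highest array in Ccr7 and Ccl5.

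**Figure D3:**
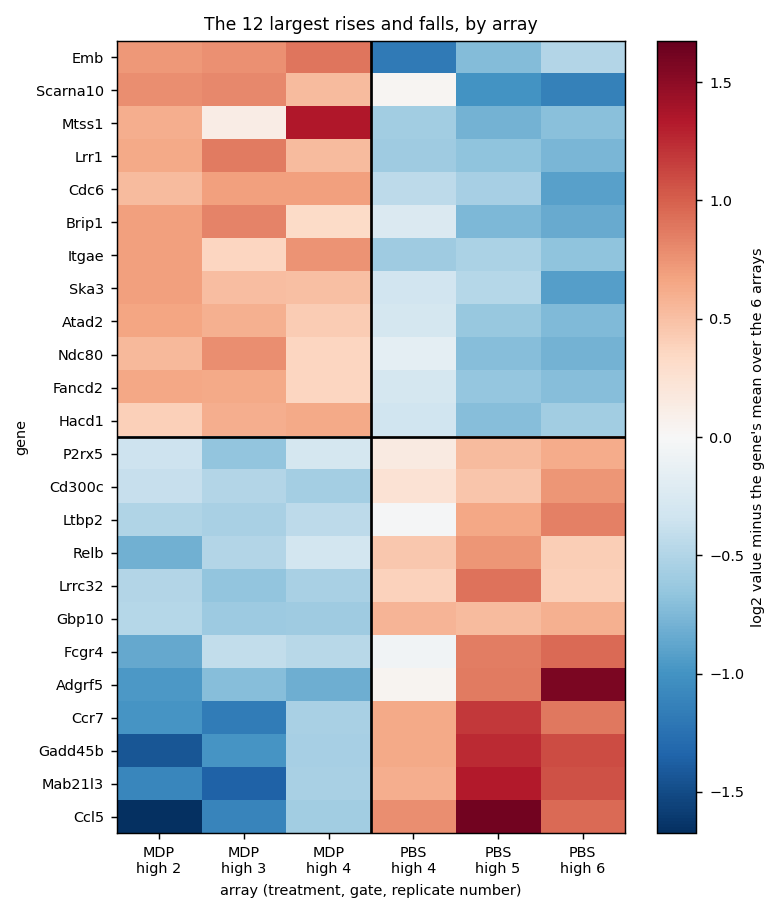
Colours give the log2 value minus the mean of the gene over the 6 CD103 high arrays, with arrays in columns (MDP replicates 2, 3 and 4, then PBS replicates 4, 5 and 6) and the 12 largest rises and 12 largest falls in rows. PBS replicate 4 is nearer to the MDP arrays than the other PBS arrays in Scarna10, Adgrf5 and Ltbp2.

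Of 53 measured genes of origin licensing and the replication fork, 44 rose and 0 fell, against 1.42% and 0.397% of all genes. All 53 differences were above 0, with a median of 0.73 against -0.01 for all genes. The mean of the list on each array was 8.51, 8.52 and 8.53 with MDP and 8.02, 7.74 and 7.68 with PBS, so the MDP arrays lay close together and above every PBS array. The 3 with the smallest p were Lrr1, Rfc3 and Topbp1. Rfc3, a subunit of the loader of the sliding clamp, was at 7.48, 7.44 and 7.50 with MDP and 6.89, 6.72 and 6.66 with PBS (0.71 ± 0.09, adjusted p = 0.00428). Topbp1, which fires origins and activates the checkpoint kinase ATR, was at 10.22, 10.08 and 10.08 with MDP and 9.58, 9.50 and 9.40 with PBS (0.63 ± 0.08, adjusted p = 0.00428). The MDP arrays did not overlap the PBS arrays in 51 of the 53 genes, and lay above them without overlap in 8.96% of all genes. The count of 44 was 16 without PBS CD103 high replicate 5, 17 without 6, 23 without MDP CD103 high replicate 2 and 25 without 3.

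The genes that supply nucleotides moved less uniformly. Of 29 measured, 10 rose (34.5%, against 1.42% of all genes) and 0 fell, and the median was 0.37. Rrm1, the large subunit of ribonucleotide reductase, which makes the building blocks of DNA, was at 8.97, 8.82 and 8.67 with MDP and 8.02, 7.74 and 7.69 with PBS (1.01 ± 0.16, adjusted p = 0.00842). Paics of purine synthesis rose by 0.53 ± 0.08 (adjusted p = 0.00643) and Mthfd1 of folate metabolism by 0.57 ± 0.09 (adjusted p = 0.00977). Without MDP CD103 high replicates 2, 3 or 4 the count of 10 was 4, 3 or 6, and without PBS CD103 high replicates 5 or 6 it was 2 or 1.

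Of 35 cyclins, cyclin-dependent kinases and members of the E2F and Rb families and their regulators, 13 rose (37.1%, against 1.42% of all genes) and 0 fell, with a median of 0.39. Skp2, the ubiquitin ligase subunit that removes the inhibitor p27, was at 7.42, 7.42 and 7.32 with MDP and at 6.46, 6.59 and 6.54 with PBS (0.86 ± 0.11, adjusted p = 0.00428). Mybl2, a transcription factor of the S and G2 phases, rose by 0.71 ± 0.11 (adjusted p = 0.00631), and Cdk6, a kinase that inactivates Rb, by 0.85 ± 0.14 (adjusted p = 0.00842). The count of 13 was 4 without either of MDP CD103 high replicates 2 and 3, 6 without 4, and 3 without either of PBS CD103 high replicates 5 and 6. Among 25 inhibitors of these kinases and p53 targets, 1 rose and 1 fell (8.0%, against 1.82% of all genes), and the median was 0.00. Cdkn2d, which inhibits CDK4 and CDK6, was the gene that rose (0.57 ± 0.12, adjusted p = 0.0302), and Gadd45b the gene that fell. The call of Cdkn2d was lost without any 1 of the CD103 high arrays other than MDP replicate 4, and without MDP CD103 low replicate 1 the members lower numbered 2.

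Of 38 genes of the kinetochore and the spindle checkpoint, 20 rose (52.6%, against 1.42% of all genes) and 0 fell, with a median of 0.64. Ndc80 was at 8.82, 9.06 and 8.64 with MDP and 8.11, 7.57 and 7.50 with PBS (1.12 ± 0.15, adjusted p = 0.00491). Kntc1, which recruits dynein to kinetochores, rose by 0.98 ± 0.13 (adjusted p = 0.00491), and Cenpk of the inner kinetochore by 0.96 ± 0.13 (adjusted p = 0.00495). Of 53 mitotic kinases, kinesins and genes of chromosome structure and cytokinesis, 27 rose (50.9%, against the same 1.42%) and 0 fell, with a median of 0.62. Esco2, an enzyme that acetylates cohesin while DNA is copied, was at 7.96, 7.86 and 7.74 with MDP and 7.06, 6.74 and 6.77 with PBS (1.00 ± 0.14, adjusted p = 0.00502). Ncapg2, a subunit of condensin, rose by 0.92 ± 0.13 (adjusted p = 0.00502) and Ect2, which starts cytokinesis, by 0.79 ± 0.11 (adjusted p = 0.00520). Without MDP CD103 high replicates 2 or 3 the counts were 5 and 7 for the kinetochore and 7 and 7 for mitosis, and without PBS CD103 high replicates 5 or 6 they were 5 and 5, and 7 and 5.

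Of 41 genes of homologous recombination and Fanconi repair, 17 rose (41.5%, against 1.42% of all genes) and 0 fell, with a median of 0.54. Fancd2 was at 7.61, 7.60 and 7.32 with MDP and 6.67, 6.31 and 6.24 with PBS (1.10 ± 0.12, 2.14-fold, adjusted p = 0.00428). Rad54l, which helps the recombinase search for homology, rose by 0.98 ± 0.12 (adjusted p = 0.00428) and Mms22l, which protects stalled forks, by 0.96 ± 0.12 (adjusted p = 0.00468). The count of 17 was 9 without any 1 of MDP CD103 high replicates 2 and 3 and PBS CD103 high replicates 5 and 6. Replication-dependent histones, whose transcripts lack a poly(A) tail, were measured for 25 genes, of which 3 rose (H1f5, 1.00 ± 0.15, H2bc12, 1.02 ± 0.21, and H2ac21, 0.73 ± 0.16) and 0 fell. Histone genes are near-identical copies, so their single values are uncertain, and the count of 3 was 1 without any 1 of those 4 arrays and 8 without MDP CD103 high replicate 4.

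Over the 7 lists of replication, nucleotides, cyclins and E2F, kinetochore, mitosis, repair and histones, 134 of 274 measured genes rose and 0 fell, against 1.42% and 0.397% of all genes. The 134 were 42.5% of all genes that rose. The kinase inhibitors and p53 targets, where Gadd45b fell, are not counted there. Of the 315 genes that rose, 175 were in none of the lists read here. In bulk RNA, fewer cells of a kind and less RNA per cell cannot be told apart, so a larger share of dividing cells and more cycle RNA in each cell give the same values.

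**Figure D4:**
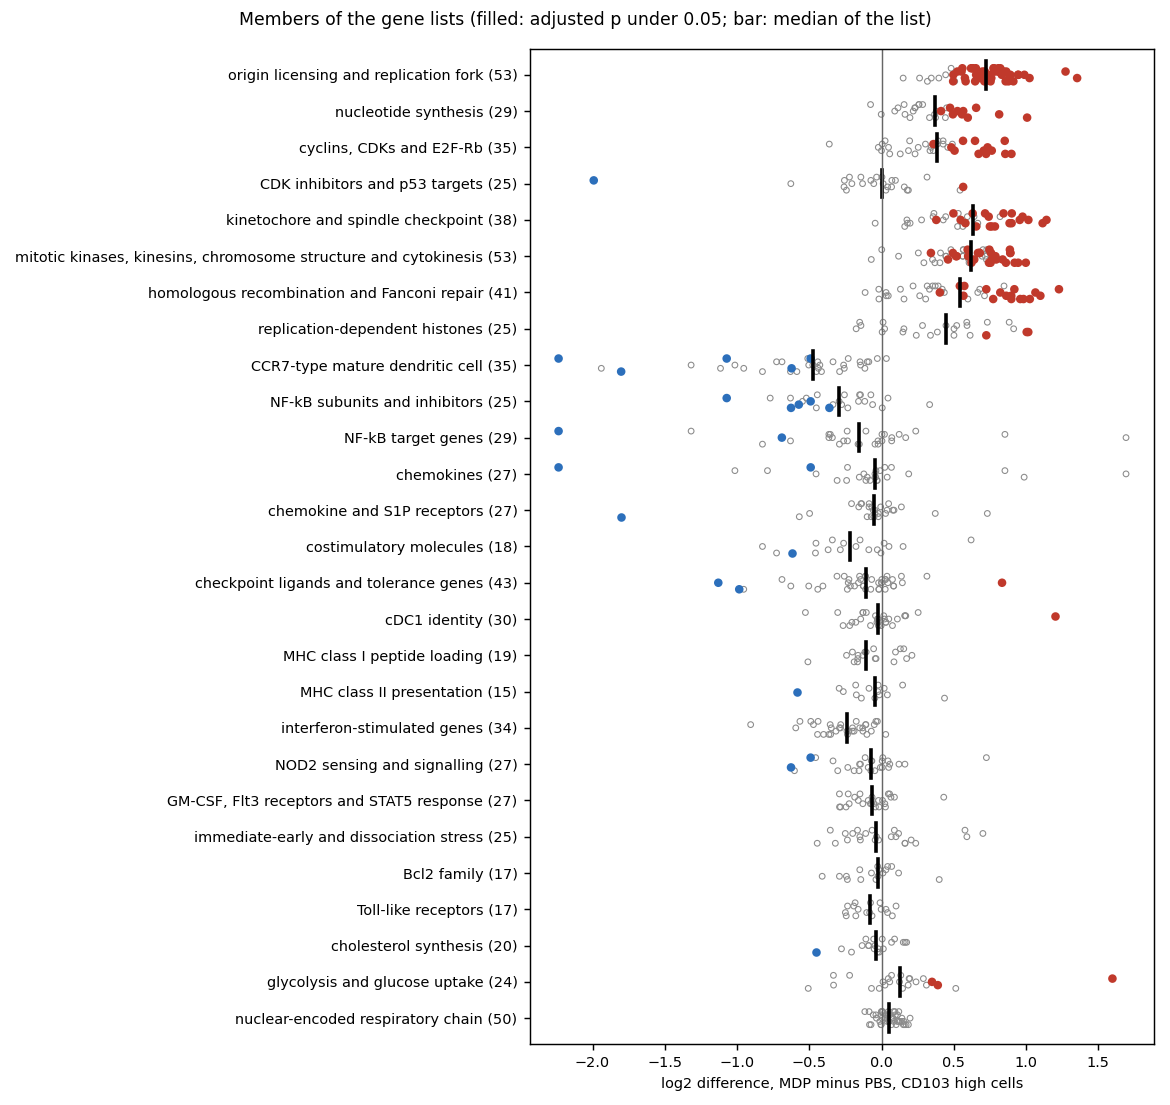
Each row is 1 of 27 gene lists with the number of members measured, each point is a member, and the x axis is the log2 difference, MDP minus PBS, in CD103 high cells. Filled points passed the threshold and black bars mark the list medians, which run from 0.73 for origin licensing and the replication fork to -0.48 for the mature dendritic cell.

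The promoters of Topbp1, Rfc3 and Cdc6 are shown since these replication genes rose and hold motifs that E2F factors, the regulators of S phase genes, are known to bind. They were picked in order of p among named genes found to hold a searched motif. Emb, Fancd2 and Lrr1, with smaller p, are not among them. That of Fcrla is shown as the fallen gene with a motif and the smallest p. The promoters of the fallen genes Mab21l3 and H2-Oa, picked by the same rule, held CCAAT boxes only and are not printed. Printed are the 250 bases before the start, 5′ to 3′ on the strand of the gene, as given by RefSeq on GRCm38.p6. Capitals mark matches on either strand to an E2F type motif (TTCCCGC or TTCGCGC or TTGCCGC or TTGGCGC), a cell cycle homology region (TTTGAA or TTCGAA), the box with the letters CCAAT, or the NF-kB consensus. The Topbp1 promoter is at chr9:103305077-103305326 on the plus strand, that of Rfc3 at chr5:151651209-151651458 on the minus strand, that of Cdc6 at chr11:98907901-98908150 on the plus strand and that of Fcrla at chr1:170927584-170927833 on the minus strand.
Topbp1: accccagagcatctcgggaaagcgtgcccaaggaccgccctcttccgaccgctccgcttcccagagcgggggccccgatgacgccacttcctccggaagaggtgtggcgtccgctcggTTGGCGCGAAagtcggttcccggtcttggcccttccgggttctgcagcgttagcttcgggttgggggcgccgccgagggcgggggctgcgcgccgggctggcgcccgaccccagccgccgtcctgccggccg
Rfc3: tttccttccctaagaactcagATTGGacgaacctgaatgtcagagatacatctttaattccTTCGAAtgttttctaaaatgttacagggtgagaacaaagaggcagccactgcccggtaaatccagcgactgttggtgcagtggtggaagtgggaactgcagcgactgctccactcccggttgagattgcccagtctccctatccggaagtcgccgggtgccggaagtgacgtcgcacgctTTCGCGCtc
Cdc6: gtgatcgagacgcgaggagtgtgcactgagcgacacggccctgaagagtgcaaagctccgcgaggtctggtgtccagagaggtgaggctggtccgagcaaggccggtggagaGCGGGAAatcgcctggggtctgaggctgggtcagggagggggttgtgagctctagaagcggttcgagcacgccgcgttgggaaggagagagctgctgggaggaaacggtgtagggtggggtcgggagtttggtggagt
Fcrla: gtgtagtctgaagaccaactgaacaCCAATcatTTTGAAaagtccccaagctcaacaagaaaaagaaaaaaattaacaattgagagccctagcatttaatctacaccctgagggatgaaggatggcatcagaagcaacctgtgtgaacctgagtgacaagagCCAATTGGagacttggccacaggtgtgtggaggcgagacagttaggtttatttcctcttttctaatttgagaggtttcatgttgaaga

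In Topbp1 a pair of E2F type matches on opposite strands overlap, starting 132 and 129 bases before the start of the gene. Rfc3 holds an E2F type match that begins 9 bases before the start, a cell cycle homology region at 189 and a CCAAT box at 229. Cdc6 holds 1 E2F type match at 138. Fcrla holds no E2F type match, a cell cycle homology region at 217 and CCAAT boxes at 225, 88 and 85, of which the last overlap each other on opposite strands.

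Over the whole RefSeq window, 250 bases before to 50 after the start, E2F type motifs were in 44.4% of 304 promoters of genes that rose (260 of 315 genes matched), in 7 of 70 promoters of genes that fell (63 of 88 genes matched) and in 12.1% of 20520 promoters of all measured genes. Among all 32851 promoters of the table the share was 9.57%. Of 40 promoters of the replication genes that rose, 28 held such a motif (70.0%). CCAAT boxes were in 50.0% of promoters of genes that rose, 41.4% of those that fell and 37.7% of those of all measured genes. Cell cycle homology regions were in 28.3%, 18.6% and 17.0%, and the NF-kB consensus in 9.21%, 12.9% and 9.33%. These shares describe the letters of the promoters only.

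Genes of the mature, CCR7-type dendritic cell lay lower with MDP. Of 35 measured, 5 fell (0.397% of all genes did) and 0 rose, and 34 of the 35 differences were below 0, with a median of -0.48. The mean of the list was 7.52, 7.53 and 7.65 with MDP and 8.06, 8.36 and 8.14 with PBS, without overlap. The 5 that fell were Ccr7, Ccl5, Relb, Birc3 and Cd80. Birc3, an inhibitor of apoptosis in NF-kB signalling, was at 9.19, 9.08 and 9.16 with MDP and 9.51, 9.67 and 9.71 with PBS (-0.49 ± 0.09, adjusted p = 0.0192). The list mean of MDP CD103 low replicate 1 was 8.82, above every other array. Without that array 16 members were lower, and without any 1 of MDP CD103 high replicates 2 and 3 and PBS CD103 high replicates 5 and 6 the count was 0. It was 3 when replicate 4 of either CD103 high group, or 1 of the 4 PBS CD103 low arrays, was left out.

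Of 25 NF-kB subunits and inhibitors, 5 fell and 0 rose, with a median of -0.29 and 22 differences below 0. Relb, a subunit of the noncanonical pathway, was at 7.59, 7.90 and 8.08 with MDP and 8.85, 9.13 and 8.81 with PBS (-1.07 ± 0.24, adjusted p = 0.0413). Tnip1 (-0.57 ± 0.12, adjusted p = 0.0260) and Tnfaip3, which encodes A20 (-0.63 ± 0.13, adjusted p = 0.0338), restrain NF-kB and are also induced by it. Birc3 and Nfkbib were the others. Leaving out any 1 of MDP CD103 high replicates 2 and 3 and PBS CD103 high replicates 5 and 6 gave a count of 0, and without MDP CD103 high replicate 4 it was 1. Without PBS CD103 low replicates 1 or 3 it was 3 or 2.

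Of 29 known target genes of NF-kB, 2 fell (6.90%, against 0.397% of all genes) and 0 rose, with a median of -0.15. At an unadjusted p under 0.05 in limma, 11 were lower and 1 higher, beside 2956 of all 22180 genes in either direction. The count of 2 was 5 without MDP CD103 low replicate 1. It was 0 when MDP CD103 high replicate 3, PBS CD103 high replicate 5 or PBS CD103 high replicate 6 was left out. It was 1 without any 1 of MDP CD103 high replicates 2 and 4, PBS CD103 high replicate 4 and the PBS CD103 low arrays. Il1b, the precursor of interleukin 1 beta, was at 10.81, 10.41 and 10.35 with MDP and 11.11, 11.38 and 11.15 with PBS (-0.69 ± 0.16, adjusted p = 0.0433), and Ccl5 was the other. Of 27 chemokines the same Ccl5 and Cxcl16 (-0.49 ± 0.11, adjusted p = 0.0497) fell, 7.41% against 0.397% of all genes. The largest positive difference of all 22180 genes was that of the chemokine Ccl3, singled out after its values were seen, at 8.81, 8.77 and 6.96 with MDP and 6.65, 6.76 and 6.06 with PBS. Its difference of 1.69 ± 0.64 did not pass (adjusted p = 0.260), and 1 MDP array was far below the other two. Of 27 chemokine and S1P receptors Ccr7 fell, and of 18 costimulatory molecules Cd80, the ligand of CD28 (-0.62 ± 0.14, adjusted p = 0.0465). They were 3.70% and 5.56% of their lists, against 0.397% of all genes. Without MDP CD103 low replicate 1 these lists had 2 receptors and 3 costimulatory molecules lower. The calls of Il1b, Cxcl16 and Cd80 were kept in 10, 7 and 8 of the 24 alternatives and lost without any 1 of PBS CD103 high replicates 4, 5 and 6. The lists of mature dendritic cells, NF-kB subunits, NF-kB targets, chemokines and costimulatory molecules share genes. Together 10 of their 108 measured genes fell, against 0.397% of all genes. These 10 were 11.4% of the 88 falls, while 69 of the 88 were in none of the lists read here.

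Of 43 checkpoint ligands and genes linked to tolerance, 1 rose and 2 fell (6.98%, against 1.82% of all genes), and the median was -0.11. Lgals1, which encodes galectin-1, a lectin that dampens T cell responses, was at 9.24, 9.66 and 9.26 with MDP and 8.61, 8.57 and 8.47 with PBS (0.83 ± 0.13, adjusted p = 0.00822). Its call was lost without PBS CD103 high replicate 6. Lrrc32 and Ltbp2 were the genes that fell, and 5 members were lower without MDP CD103 low replicate 1. Without any 1 of 9 other arrays 1 member was lower. The NOD2 list held Birc3 and Tnfaip3 as its 2 falls among 27 genes (7.41%, against 0.397% of all genes), with 0 rises and a median of -0.07. Both calls were lost without any 1 of MDP CD103 high replicates 2 and 3 and PBS CD103 high replicates 5 and 6, and with only the 6 arrays of the gate. Tnfaip3 alone was lost without MDP CD103 high replicate 4 or PBS CD103 low replicates 1 or 3.

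**Figure D5:**
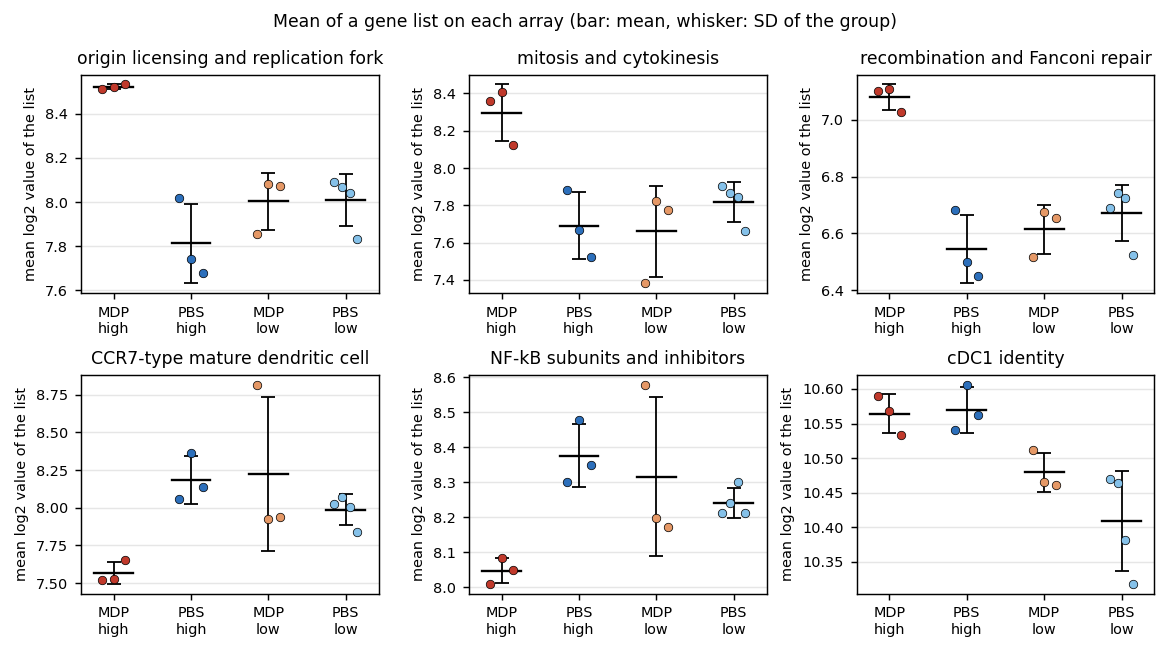
The mean log2 value of 6 gene lists (y axes) is shown on each array by treatment and CD103 gate, with bars for group means and whiskers for the SD. Origin licensing, mitosis and repair genes are highest on the MDP CD103 high arrays, mature dendritic cell and NF-kB genes lowest there, and the 3 MDP and 3 PBS arrays of the CD103 high gate overlap in cDC1 identity.

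Interferon-stimulated genes lay lower in 33 of 34 members, with a median of -0.24, but 0 passed in limma, and 6 had an unadjusted p under 0.05. The means of the list were 6.67 to 6.92 on the MDP arrays and 6.75 to 7.26 on the PBS arrays, which overlap, and the groups did not overlap in 2 of the 34 genes, against 19.0% of all genes. Those with the smallest p were Ifit1 (-0.35 ± 0.09, adjusted p = 0.0729) and Oasl2 (-0.91 ± 0.26, adjusted p = 0.121). Of 15 genes of MHC class II presentation 1 fell (6.67%, against 0.397% of all genes). It was H2-Oa, a subunit of the molecule that restrains peptide loading. H2-Oa was at 10.74, 10.74 and 10.73 with MDP and 11.15, 11.33 and 11.49 with PBS (-0.59 ± 0.11, limma, adjusted p = 0.0153). That call was lost without any 1 of MDP CD103 high replicates 2 and 3 and PBS CD103 high replicates 5 and 6. Among 19 genes of MHC class I loading, 27 of GM-CSF and Flt3 receptors and STAT5 response, 25 immediate-early, 17 of the Bcl2 family and 17 of Toll-like receptors 0 passed in limma, with medians of -0.11, -0.07, -0.04, -0.03 and -0.08, and 5, 6, 3, 5 and 2 had an unadjusted p under 0.05. Of all 22180 genes, 2956 had such a p. Bcl2, which protects from apoptosis, was at 7.14, 7.30 and 7.30 with MDP and 6.68, 6.77 and 7.09 with PBS (0.40 ± 0.10, adjusted p = 0.0598).

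Of 24 genes of glycolysis and glucose uptake, 3 rose (12.5%, against 1.42% of all genes) and 0 fell, with a median of 0.13. At an unadjusted p under 0.05 in limma 8 were higher, beside 2956 of all 22180 genes in either direction. The 3 include Emb, whose product accompanies lactate transporters and is no glycolytic enzyme. Beside Emb these were Pkm, pyruvate kinase, at 10.63, 10.62 and 10.67 with MDP and 10.33, 10.27 and 10.27 with PBS (0.35 ± 0.06, adjusted p = 0.0128), and Tpi1, triosephosphate isomerase (0.39 ± 0.08, adjusted p = 0.0218). Without MDP CD103 high replicate 2 or PBS CD103 high replicates 5 or 6 the count was 1. Of 20 cholesterol synthesis genes 1 fell (5.0%, against 0.397% of all genes), Msmo1 (-0.45 ± 0.09, limma, adjusted p = 0.0187). Its call was lost without the same 4 arrays as that of H2-Oa, each left out alone. Of 50 subunits of the respiratory chain 0 passed in limma (3 at an unadjusted p under 0.05), with a median of 0.05.

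All markers of other cell types that passed the threshold fell. Of 14 plasmacytoid dendritic cell markers 2 fell (14.3%, against 0.397% of all genes), and 3 lay below background. The falls were those of Cd300c and Pacsin1 (-0.77 ± 0.14, limma, adjusted p = 0.0130). Pacsin1 was near the background with MDP, at 5.00, 5.31 and 5.17. The mean of the 14 markers was 6.32 to 6.33 on the MDP CD103 high arrays and 6.38 to 6.59 on the PBS CD103 high arrays. Siglech, a defining marker of these cells, was at 5.27, 5.28 and 4.79 with MDP and 5.20, 5.17 and 5.63 with PBS. Of 18 monocyte and macrophage markers 1 fell (5.56%, against 0.397% of all genes), and 8 lay below background. The fall was that of Ms4a7 (-0.72 ± 0.13, limma, adjusted p = 0.0147). Ms4a7 was itself below background, with a mean of 4.98 over all arrays, so the size of its difference is uncertain. The means of the list were 5.44 to 5.55 with MDP and 5.59 to 5.69 with PBS. Of 14 cDC2 markers 0 passed in limma (4 at an unadjusted p under 0.05), with means of 5.71 to 5.73 with MDP and 5.76 to 5.84 with PBS. The call of Pacsin1 was lost without MDP CD103 high replicate 2 or PBS CD103 high replicate 5, and that of Ms4a7 also without PBS CD103 high replicate 6, while without MDP CD103 low replicate 1 the monocyte markers lower numbered 2. The part of these cell types in the falls of other genes was not tested.

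Of 11 B cell markers 1 fell (9.09%, against 0.397% of all genes), and 8 of the 11 lay below background. The fall was that of Fcrla, an intracellular Fc receptor-like protein. Its means were 8.35 ± 0.15 in MDP and 9.08 ± 0.08 in PBS CD103 high cells (SD, n = 3 each), without overlap (-0.72 ± 0.10, limma, adjusted p = 0.00491). T cell, natural killer cell, neutrophil, erythroid and B16 melanoma markers, 12, 12, 15, 7 and 11 genes, had 0 members past the threshold in limma, with 3, 1, 1, 2 and 0 at an unadjusted p under 0.05, and 8, 7, 13, 6 and 8 of them lay below background. The means of each of these 5 lists and of the B cell list overlapped between MDP and PBS arrays.

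The same genes were read in CD103 low cells, MDP CD103 low (n = 3) against PBS CD103 low (n = 4). The 315 genes that rose in CD103 high cells had a median difference of 0.00 there, and 162 of them were above 0. The 88 that fell had a median of -0.04, with 59 below 0, against a median of 0.00 over all genes. For origin licensing and the replication fork the median was 0.00 in CD103 low cells and for the kinetochore -0.10, beside 0.73 and 0.64 in CD103 high cells. In the mature dendritic cell list it was 0.20, beside -0.48 in CD103 high cells. Single arrays set several of these directions. Without MDP CD103 low replicate 1 the CD103 low median was -0.06 for the mature dendritic cell, 0.02 for the kinetochore and 0.08 for origin licensing and the replication fork. It was then 0.06 for the genes that rose in CD103 high cells, with 229 above 0, and -0.09 for those that fell. An unadjusted p under 0.05 was seen for 1343 genes in CD103 low cells and for 2956 in CD103 high cells.

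The difference of the responses was tested as an interaction. It passed for 16 of 22180 genes (0.0721%), all with a higher response in CD103 high cells and all among the genes that rose there, at an adjusted p of 0.0486 each. The 10 with the smallest p were Ndc80, Fancd2, Esco2, Ncapg2, Rfc5, Kif4, Rad18, Blm, Rpa2 and Mtbp, with differences of 0.78 for Rfc5 to 1.43 for Esco2. Rfc5 helps to load the sliding clamp, Rpa2 is a subunit of the protein that coats single-stranded DNA, Kif4 is a chromosome-borne kinesin, Rad18 and Blm repair damaged forks and Mtbp fires origins. Esco2 averaged 6.52 ± 0.33 in MDP CD103 low cells (SD, n = 3) and 6.95 ± 0.05 in PBS CD103 low cells (SD, n = 4), a difference that did not pass in limma (-0.43 ± 0.13, adjusted p = 0.741). For Cdc6 (1.29, adjusted p = 0.0553), Lrrc32 (-1.27, adjusted p = 0.0525) and Ccr7 (-2.14, adjusted p = 0.102) the difference did not pass. The count of 16 was 107 without PBS CD103 high replicate 4, 41 without PBS CD103 low replicate 6, 10 without MDP CD103 low replicate 2, 2 without MDP CD103 low replicate 1, and 0 without any 1 of the other 9 arrays. With the replicate number as a random block within treatment it was 41, and with the sex-linked transcripts as a covariate 0. An unadjusted p under 0.05 was seen for 2137 genes.

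Of the 403 calls, 66 were kept in every alternative that tested them other than the fixed replicate block. Under that block 0 genes passed in limma and 1749 had an unadjusted p under 0.05. Bex6, 1 of the 66, lay below background at a mean of 3.45 over all arrays and was not tested in the filtered fit. Of these 66, 59 rose and 7 fell. Emb, Fancd2, Lrr1, Cdc6, Ndc80, Ska3 and Atad2 were among the rises, and Lrrc32, Cd300c and Fcrla among the falls.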

How the data were processed

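RNA of sorted cells, 400 ng per sample and pre-amplified per the labels, was hybridised to Affymetrix arrays. Deposited were log2 values per probe set, made by the authors with RMA in Affymetrix Expression Console, per the submitters' processing notes. Not given in the sources used here: versions and the genome build behind the probe sets. Since RMA makes the distributions of arrays alike, a change shared by most genes would be removed. Array medians lay between 5.00 and 5.13, and no pair of arrays was identical (Pearson correlation between arrays over genes 0.976 to 0.991). Detection calls were not used here, and the number of arrays limits the precision (median SE 0.110).

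Of 41345 probe sets, 23521 had 1 gene symbol, 1814 several and 16010 none listed. They gave 22180 genes, the probe set with the highest mean standing for each of 1082 genes with more than 1. The fit in limma 3.58.1 under R 4.3.3 took all 13 arrays, 1 mean per group, with 9 residual degrees of freedom. Tests were two-sided with Benjamini-Hochberg adjustment over all genes of a contrast and a threshold of 0.05. The other 17824 probe sets were fitted apart, and 0 passed (1145 at an unadjusted p under 0.05). Tables were read with Python 3.11.15 and pandas 2.3.3, and the fit was tested on simulated data.

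The comparison, the gene lists and the alternatives were chosen with earlier results of these data known, so list counts are descriptions. Genes were named by rule: the 12 largest rises and falls without overlap between the arrays of the groups; of each list, the 3 rises and the 3 falls of smallest p, where there were as many, or 2 members where none passed; the 10 smallest p of the interaction; and Itgae, Cd8a, Ly75, Nod2, Emb, Cdc6, Lrrc32, Ccr7, Xist and the Y-linked genes. Predicted genes, microRNAs, small nucleolar RNAs, receptor segments and olfactory genes were counted only, which left out 13 rises and 9 falls from the size rule's candidates. Other genes named were chosen after their values were seen: Batf3, Irf8, Xcr1, Wdfy4, Siglech, Nfkbib, Ccl3 and those under the other observations.

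Replicate numbers recur without a stated meaning. Deviations from the group means correlated at 0.196 to 0.372 in the 4 same-numbered pairs of a treatment, which were also alike in Xist, and at -0.236 to 0.45 across treatments. A pair with unlike numbers, PBS CD103 low replicate 3 and MDP CD103 high replicate 2, correlated at 0.291, so the correlations do not settle what the numbers mean. The main fit did not use them. The random block took them to pair the gates within a treatment, and the fixed replicate block joined arrays of equal number over gates and treatments. Alternatives were the use of the 6 arrays alone, a variance trend, array weights, replicate blocks, a sex-linked covariate, probe set means, a filter, other scalings and leaving out arrays.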

Additional observations from a re-analysis of the deposited data

Results flagged for a closer look

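In Lrrc32, 1 of the 4 PBS CD103 low arrays, replicate 6, stood apart at 5.54, while the others lay at 6.04, 6.03 and 6.03. At the cut used to pick out such arrays, chance sets about 1 in 20 groups apart. The MDP CD103 high arrays lay at 5.60, 5.42 and 5.54 and the PBS CD103 high arrays at 6.47, 6.99 and 6.49, so this array lay within the range of the MDP CD103 high arrays.

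For 16 genes the response to MDP differed between the gates by the interaction in limma, and the 10 with the smallest p had an adjusted p of 0.0486 each. With the sex-linked covariate 0 genes passed, as without any 1 of 9 of the 13 arrays, and 2 passed without MDP CD103 low replicate 1. The response in CD103 high cells minus that in CD103 low cells was 1.43 for Esco2, 1.39 for Ndc80, 1.27 for Kif4, 1.21 for Blm, 1.12 for Fancd2, 1.12 for Ncapg2, 0.93 for Mtbp, 0.80 for Rad18, 0.80 for Rpa2 and 0.78 for Rfc5. In each of the 10 the response was above 0 in CD103 high cells and below 0 in CD103 low cells. These genes were picked by the p of that difference, which favours opposed signs, so the signs are no separate result. In CD103 low cells it ran from -0.43 for Esco2 to -0.02 for Fancd2, and none passed there in limma.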

How the results depend on the processing

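In CD103 high cells, 315 higher and 88 lower genes became 147 and 53 with only the 6 arrays of that gate, and 491 and 208 among genes above the olfactory receptor range. A variance trend with a robust fit gave 165 lower genes and array weights 160. With single arrays left out the counts ran from 69 to 391 higher and from 13 to 203 lower. Without both MDP CD103 low replicate 1 and PBS CD103 high replicate 5, an alternative chosen after seeing the data, they were 180 and 93. With the replicate number as a fixed replicate block over both treatments, 0 higher and 0 lower genes passed, and 0 in the other contrasts. The compared groups share only number 4, so this block sets few MDP arrays against PBS arrays. With the number as a random block within treatment the counts were 310 and 82, within 1.5 times of those without it. It moved the others by more, with 2 genes in CD103 low cells, against 1, and 41 for the difference of the responses, against 16.

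In CD103 low cells the count was 0 with the variance trend, 0 to 2 with single arrays left out and 2 without both named arrays. The difference of the responses gave 116 genes with the variance trend, 35 with array weights, 134 with the filter, 29 with repeated quantile normalisation, 0 with the sex-linked covariate, 0 to 107 with single arrays left out and 2 without both named arrays. Nod2, with a difference of -0.01, turned to 0.0176 with the replicate block and 0.012 with median centring, and ran from -0.0802 to 0.0614 with single arrays left out, above 0 without MDP CD103 high replicate 2 or PBS CD103 high replicate 6. Of 2431 alternative values of 92 named genes, 1999 kept direction and call, 410 lost the call, 18 gained it and 4 turned, the last all of Nod2. These values pool the MDP differences in CD103 high cells with, for the genes named from the interaction, the differences of the responses. None of the 11 lists with a median of at least 0.2 in size changed sign under these alternatives. The cause of these shifts was not tested.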

Other observations

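Genes of chromatin copying outside the lists also rose in CD103 high cells, and were singled out after their values were seen, so no test stands behind the choice. Uhrf1, which brings the maintenance methyltransferase to new DNA, was at 9.30, 9.41 and 9.31 with MDP and 8.66, 8.38 and 8.24 with PBS (0.91 ± 0.12, limma, adjusted p = 0.00468). Dnmt1, that methyltransferase, was at 9.81, 9.76 and 9.63 with MDP and 9.18, 8.80 and 8.82 with PBS (0.80 ± 0.12, adjusted p = 0.00520). Cbx5, a heterochromatin protein, rose by 1.09 ± 0.13 (adjusted p = 0.00428) and Nasp, a histone chaperone, by 0.89 ± 0.12 (adjusted p = 0.00502). In each of these 4 genes MDP and PBS arrays lay apart. In CD103 low cells the differences were 0.02 for Uhrf1, 0.06 for Dnmt1, 0.22 for Cbx5 and 0.10 for Nasp.

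Phgdh and Psat1, which make serine from a glycolytic intermediate, rose by 0.68 ± 0.13 (limma, adjusted p = 0.0210) and 0.69 ± 0.15 (adjusted p = 0.0392). Phgdh was at 6.67, 6.53 and 6.80 with MDP and 5.94, 6.11 and 5.90 with PBS. Among falls outside the lists were Ifitm6, an interferon-induced transmembrane protein family member, at 6.09, 6.02 and 5.82 with MDP and 6.63, 6.87 and 6.98 with PBS (-0.85 ± 0.12, adjusted p = 0.00502), and Plac8, at 10.19, 10.19 and 10.10 with MDP and 10.61, 10.60 and 10.54 with PBS (-0.42 ± 0.07, adjusted p = 0.00697). Cd63, a tetraspanin, was at 6.26, 6.61 and 7.32 with MDP and 8.42, 9.11 and 8.48 with PBS, and its difference of -1.94 ± 0.46 did not pass (adjusted p = 0.0544).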
